A study of Mus musculus with 14 samples.

Results

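The genes described are the nuclear-encoded subunits of respiratory chain complexes I to IV, measured by bulk RNA sequencing of mouse kidney before and after renal ischemia/reperfusion injury (IRI). Members were the genes whose symbols follow the subunit nomenclature (Ndufa, Ndufb, Ndufc, Ndufs and Ndufv numbers, Sdha to Sdhd, Uqcr, and Cox4 to Cox8), without Ndufa4l2, and whose mean level was at least 1 CPM (reads scaled to the library's reads on genes) over the 14 libraries. This rule gave 60 genes of 66 matching symbols and of 24411 genes in the tables. There were 34 in complex I, 4 in complex II, 8 in complex III and 14 in complex IV. Ndufa4, now counted as a subunit of cytochrome c oxidase, was placed in complex IV, and Cox7a2l, a supercomplex assembly factor, was kept there by its symbol. Just inside the threshold lay Cox6b2 at 7.19 CPM and Cox7a1 at 8.18 CPM, and just outside it lay Cox6a2 at 0.576 CPM and Cox4i2 at 0.513 CPM. The other symbols left out were Cox8b at 0.148 CPM, Cox8c and Cox7b2 without reads, and Ndufs5 with at most 1 read in a library. Counts came from uniquely mapped reads, which lowers genes that have near-identical copies elsewhere, and whether this holds for Ndufs5 was not tested.

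Kidneys came from male C57/B6 mice aged 8 weeks, with no other allele or agent named in the labels. They were taken at day 0 (4 libraries), at day 1 after IRI (5 libraries) and at day 3 after IRI (5 libraries). The day 0 kidneys are called controls in the file names, and whether those mice were sham-operated is not given in the sources used here. The labels do not say that each library is a separate animal, so the p-values measure the spread between these samples, which may be technical. The numbers in the file names came in 2 formats, written with 3 digits for day 1 replicates 1 and 2 and day 3 replicates 1 to 3, and with 1 digit for the other 9 libraries, all of day 0 included. The labels give the format no meaning, and it was handled like a technical batch, not like a condition. The 3-digit libraries against day 0 therefore differ in day and in format, which cannot be told apart.

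The respiratory chain passes electrons from NADH and succinate to oxygen and pumps protons across the inner mitochondrial membrane for ATP synthesis. Complex I oxidizes NADH, complex II oxidizes succinate and is also an enzyme of the tricarboxylic acid cycle, complex III passes electrons from ubiquinol to cytochrome c, and complex IV reduces oxygen. Complexes I, III and IV combine nuclear-encoded subunits with subunits encoded in mitochondrial DNA, whereas complex II is wholly nuclear-encoded. The proximal tubule of the kidney depends on mitochondrial oxidation for its transport work and is a main site of ischemic injury. The transcription factors NRF1, GABP (an ETS family factor), YY1 and the estrogen-related receptors, with the coactivator PGC-1α, are known regulators of these genes.

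Libraries held 12485579 to 20476979 reads on genes, of which the 60 members took 1.23% to 1.81%. All members were among the 14300 genes that passed the low count filter. Labelled tissue was checked by 15 proximal tubule markers, whose summed level was 58085 to 60127 CPM at day 0, and none of the 15 was at 0. The 10 tubular injury markers summed to 1331 to 1708 CPM at day 0, 9508 to 38346 CPM at day 1 and 7156 to 44995 CPM at day 3. No value of the 13 mitochondrially encoded subunits was analysed here.

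Before injury the 6 most abundant members per length of transcript were subunits of complex IV. Uqcrh of complex III came next, at 701 CPM per kilobase, and Cox7a2l of complex IV ranked 53 of the 60. At day 0 the highest levels per kilobase of annotated exon were 1153 CPM for Cox4i1, 1030 CPM for Cox6c, 982 CPM for Cox8a and 925 CPM for Ndufa4. The highest level per kilobase in complex I was that of Ndufb9 at 448 CPM. Complex II ranked Sdhb at 404 CPM, Sdha at 357 CPM, Sdhd at 340 CPM and Sdhc at 132 CPM per kilobase. The tissue isoforms Cox7a1 and Cox6b2 were the lowest of the 60, with Cox6b2 at 3.34 CPM per kilobase.

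The summed level of the 60 members was 17485 ± 1177 CPM (SD, n = 4) at day 0, 16372 ± 2709 CPM (n = 5) at day 1 and 13913 ± 2025 CPM (n = 5) at day 3. Complex II stood lowest against day 0 at both times, and complex IV highest. Complex II went from 2334 ± 132 CPM (n = 4) at day 0 to a mean of 1708 ± 276 CPM (n = 5) at day 1 and of 1571 ± 369 CPM (n = 5) at day 3, ratios of 0.732 and 0.673 to day 0. Complex I went from 6621 ± 391 CPM to 5983 ± 972 CPM and 5207 ± 714 CPM, ratios of 0.904 and 0.786. Complexes I and III thus lay between complexes II and IV at both times. Complex III went from 3203 ± 212 CPM to 3053 ± 529 CPM and 2532 ± 372 CPM, ratios of 0.953 and 0.790. Complex IV had 5327 ± 447 CPM, 5628 ± 1004 CPM and 4603 ± 668 CPM, ratios of 1.06 and 0.864. The day 1 ratios differed by file number format, with 1.00 in the 1-digit and 0.755 in the 3-digit libraries for complex I, 1.07 and 0.778 for complex III, and 1.19 and 0.857 for complex IV, while complex II was below day 0 in both, at 0.800 and 0.630. These sums are descriptions without a test. In bulk tissue, fewer cells of a type and less RNA per cell cannot be told apart.

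**Figure D1:**
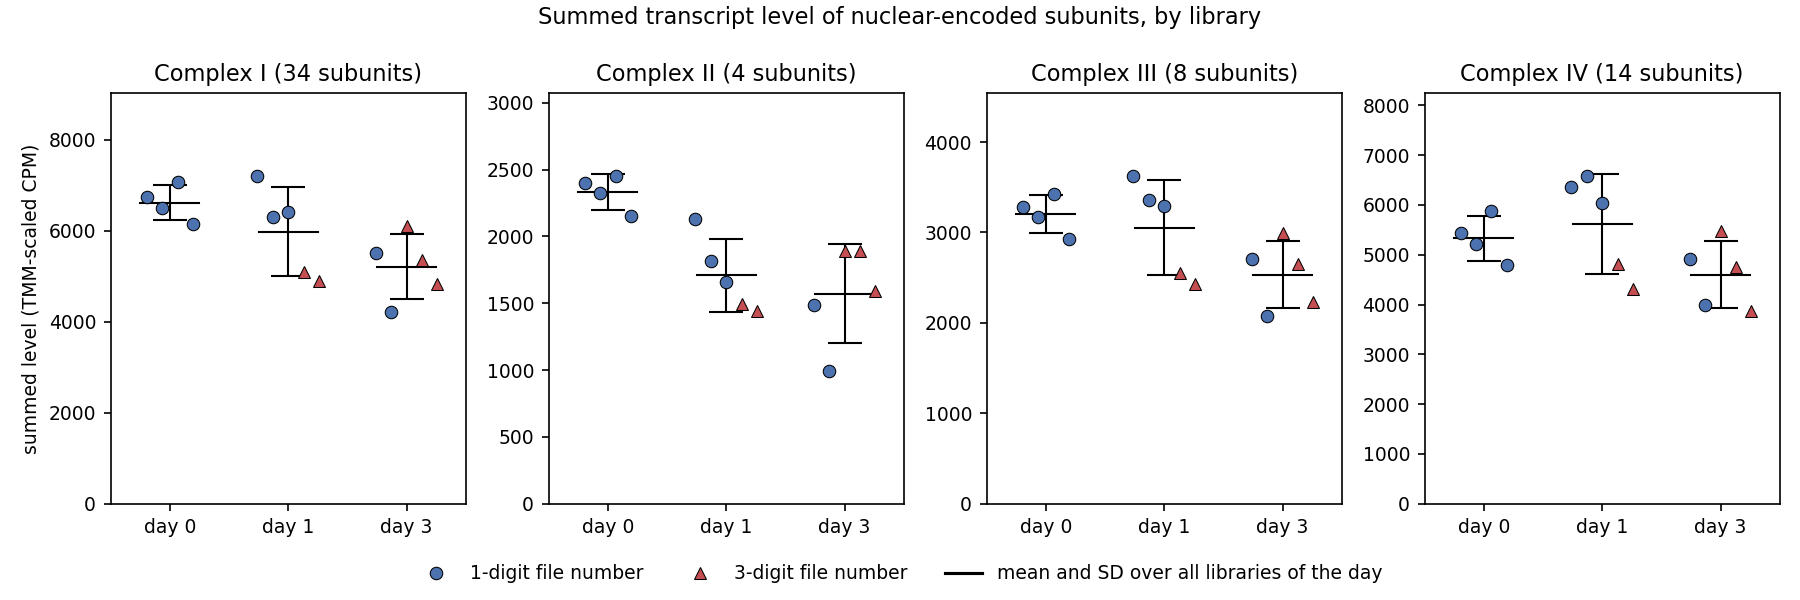
Summed CPM of the members of each complex (vertical axis) in each library by day (horizontal axis), with circles for libraries with 1-digit and triangles for libraries with 3-digit file numbers and bars for mean and SD. Complex II lies at 2334 ± 132 CPM at day 0 and at 1708 ± 276 CPM at day 1.

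Ratios between members within a library do not depend on how libraries were scaled. Transcript length differs between the complexes, with 1142 to 3171 bases of exon in complex II and 393 to 1145 bases in complex IV. The part of length in these ratios was not tested. The level of complex II over that of complex IV was 0.418 to 0.449 in the 4 day 0 libraries, 0.274 to 0.335 at day 1 and 0.249 to 0.412 at day 3. All 10 injured kidneys thus lay below the day 0 range. Complex II over complex I was 0.347 to 0.357 at day 0 and 0.258 to 0.295 at day 1, and at day 3 its range of 0.235 to 0.353 overlapped that of day 0. Complex III over complex IV was 0.584 to 0.610 at day 0, 0.509 to 0.570 at day 1 and 0.521 to 0.575 at day 3, again without overlap with day 0.

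At day 1, 2 of the 60 members rose and 7 fell against day 0 by edgeR's quasi-likelihood test with Benjamini-Hochberg adjustment over all genes tested. That was 15.0% of the members, beside 42.1% of the 14300 genes. The median log2 fold change was -0.05 over the members and 0.01 over all genes. Complex I had both of the genes that rose (Ndufa2 and Ndufa7) and 5 that fell (Ndufa10, Ndufb10, Ndufs1, Ndufs7 and Ndufv2), and complex II had Sdha and Sdhc among those that fell. In complex III and complex IV, 0 members passed the edgeR test, and at an unadjusted p under 0.05 the counts were 0 and 1, with median log2 fold changes of 0.03 and 0.18. Over all 60 members 12 had an unadjusted p under 0.05. The count of 9 became 5 without day 0 replicate 1, 3 or 4 or day 1 replicate 5, and 4 without day 0 replicate 2. Without day 1 replicate 2 the balance turned to 4 higher and 3 lower (median 0.03), and with file number format as a term 6 were higher and 8 lower. Ndufs1, Ndufs7, Ndufb10 and Ndufa2 kept their call without any 1 of the 14 libraries.

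At day 3, 1 member rose and 15 fell against day 0 by the same edgeR test. That was 26.7% of the members, beside 33.3% of all genes. The median log2 fold change of the members was -0.30, with medians of -0.32 in complex I, -0.51 in complex II, -0.26 in complex III and -0.23 in complex IV. Of the 15 that fell, 11 were complex I subunits (Ndufa9, Ndufa10, Ndufb2, Ndufb4, Ndufb10, Ndufb11, Ndufs1, Ndufs7, Ndufs8, Ndufv1 and Ndufv2), beside Sdha, Uqcrc1, Uqcrc2 and Cox6a1. Cox6b2 rose. Scaled by library totals without TMM normalization, which moved the median of all genes to 0.19, 4 members rose and 8 fell with a member median of -0.16. The count of 16 became 9 without day 0 replicate 1, 10 without day 0 replicate 2, 8 without day 0 replicate 3 and 10 without day 3 replicate 5. Ndufs1, Ndufa10, Ndufb4, Ndufb10, Sdha, Uqcrc1, Uqcrc2 and Cox6b2 kept their call without any 1 of the 14 libraries.

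Between day 1 and day 3, 4 members passed the edgeR test, 6.67% of the members beside 15.9% of all genes. Cox6b2 rose, and Ndufa1, Cox4i1 and Cox6a1 fell, with a median log2 fold change of -0.21 over the 60. Ndufa1 fell by 0.73 ± 0.14 on the log2 scale (SE, adjusted p = 0.00673, edgeR). With library totals 1 member rose and 1 fell. The count ranged from 1 to 13 when single libraries were left out, with 13 without day 1 replicate 2, 7 without day 1 replicate 1, 2 without day 0 replicate 1, 2 or 3, day 1 replicate 5 or day 3 replicate 2 or 4, and 1 without day 1 replicate 3 or 4 or day 3 replicate 3.

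**Figure D2:**
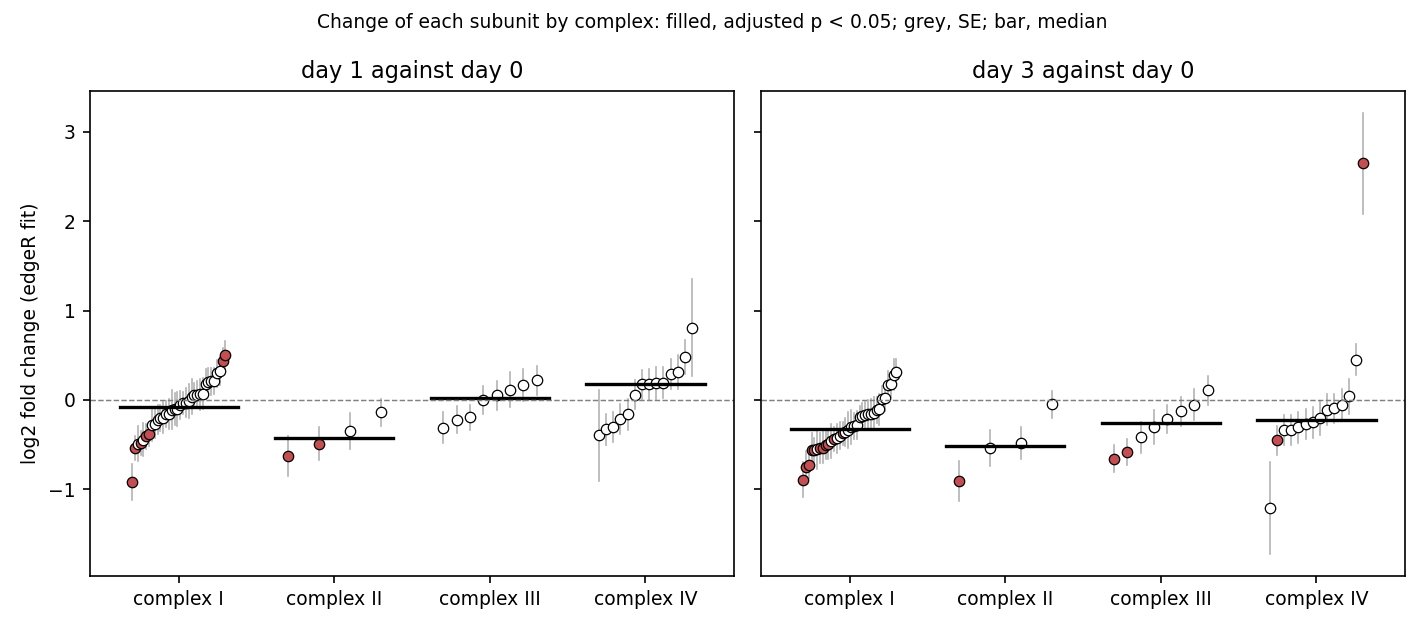
Fitted log2 fold change of each member against day 0 (vertical axis), grouped by complex, for day 1 and day 3, with grey lines for the SE, filled points for members that passed the edgeR test and bars at the median of each complex. The medians at day 1 run from -0.42 in complex II to 0.18 in complex IV, and Cox6b2 stands highest at day 3 with 2.65.

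Within complex I, the core subunits that carry the flavin and iron-sulfur clusters lay lower than the accessory subunits. Of the 7 nuclear-encoded core genes, 3 fell at day 1 and 5 at day 3, with median log2 fold changes of -0.39 and -0.44. Of all 14300 genes, 2681 fell at day 1 and 1974 at day 3, and 42.1% and 33.3% were called in either direction. Of the 27 accessory genes, 2 rose and 2 fell at day 1 and 6 fell at day 3, with medians of -0.01 and -0.20. The ratio of core to accessory levels within a library was 0.454 to 0.475 at day 0, 0.330 to 0.387 at day 1 and 0.377 to 0.415 at day 3, so that neither injured group overlapped day 0. This ratio was described and not tested. Core subunits had 758 to 2661 bases of exon and accessory subunits 315 to 2329 bases, and the part of length in the ratio was not tested.

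Ndufs1 (chr1:63143596-63176833, minus strand, mm10), the largest core subunit and a carrier of iron-sulfur clusters, had 458, 447, 459 and 426 CPM in day 0 replicates 1 to 4. It had 197, 206, 320, 229 and 231 CPM in day 1 replicates 1 to 5, and 263, 327, 255, 210 and 149 CPM in day 3 replicates 1 to 5. Every injured kidney lay below every day 0 kidney, with day 1 replicate 3 and day 3 replicate 2 nearest to them. Ndufs1 fell by 0.92 ± 0.20 on the log2 scale at day 1 (SE, adjusted p = 0.00263) and by 0.89 ± 0.20 at day 3 (adjusted p = 0.00418), by edgeR. Both calls held in all 25 alternatives, in which the adjusted p was at most 0.00959 at day 1 and 0.0139 at day 3.

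Ndufs7 and Ndufv2, core subunits with iron-sulfur clusters, and the accessory subunits Ndufa10 and Ndufb10 also fell at both times, and in each of them all injured kidneys lay below day 0. Ndufs7 had 140 to 164 CPM at day 0, 86.2 to 123 CPM at day 1 and 101 to 129 CPM at day 3. Its log2 fold changes were -0.54 ± 0.13 at day 1 (adjusted p = 0.00548) and -0.44 ± 0.13 at day 3 (adjusted p = 0.0203, edgeR). The log2 fold change of Ndufa10 was -0.41 ± 0.14 at day 1 (adjusted p = 0.0321) and -0.74 ± 0.14 at day 3 (adjusted p = 0.00181, edgeR). Single left-out libraries ended the day 1 call of Ndufa10 (each of day 0, and day 1 replicates 1, 2 and 5, adjusted p up to 0.0806) and of Ndufv2 (day 0 replicates 1 to 3 and day 1 replicate 2, up to 0.0785). They also ended the day 3 call of Ndufs7 (day 0 replicates 1 and 3 and day 3 replicate 5, up to 0.0658) and of Ndufv2 (each of day 0, and day 3 replicates 2, 3 and 5, up to 0.103).

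Ndufa2 and Ndufa7, accessory subunits of the matrix arm, moved against the other called members of complex I at day 1. Ndufa2 (chromosome 18) had 124, 122, 134 and 123 CPM at day 0, 149, 140, 210, 196 and 197 CPM at day 1, and 177, 128, 115, 156 and 128 CPM at day 3. All day 1 kidneys lay above day 0, and day 3 overlapped it. Ndufa2 rose by a log2 fold change of 0.51 ± 0.16 at day 1 (adjusted p = 0.0186, edgeR), and at day 3 the value was 0.17 (adjusted p = 0.421). The day 1 call of Ndufa2 was lost when the 1-digit injured kidneys were left out, at 0.20 (adjusted p = 0.330, edgeR). Ndufa7 (chr17:33824572-33838317, plus strand) had 96.0, 89.2, 94.4 and 83.8 CPM at day 0, 115, 108, 124, 121 and 145 CPM at day 1, and 128, 92.6, 88.6, 134 and 123 CPM at day 3. Day 1 again lay wholly above day 0. Its log2 fold change was 0.43 ± 0.14 at day 1 (adjusted p = 0.0254, edgeR) and 0.32 at day 3 (adjusted p = 0.0988). The day 3 value was called in 4 of 25 alternatives, among them file number format as a term (0.47, adjusted p = 0.0121, edgeR). The day 1 call of Ndufa7 was lost without day 0 replicate 2 (adjusted p = 0.0612), day 0 replicate 4 (0.0727) or day 1 replicate 5 (0.0624), and when the 1-digit injured kidneys were left out (0.30, adjusted p = 0.138, edgeR).

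In complex II, Sdha passed the test at both days, Sdhc at day 1, and Sdhb and Sdhd at neither, and the differences between the subunits were not tested. Sdha (chr13:74322254-74350280, minus strand), the flavoprotein that oxidizes succinate, had 1059, 1026, 1083 and 972 CPM at day 0. It had 580, 565, 857, 680 and 661 CPM at day 1, and 639, 765, 604, 437 and 307 CPM at day 3. All injured kidneys lay below day 0, and the lowest values were those of day 3 replicates 4 and 5. Sdha fell by 0.63 ± 0.22 on the log2 scale at day 1 (adjusted p = 0.0333) and by 0.91 ± 0.22 at day 3 (adjusted p = 0.00686), by edgeR. The day 3 call held in 25 of 25 alternatives. The day 1 call was lost without any 1 of 8 libraries, namely the 4 of day 0 and day 1 replicates 1, 2, 4 and 5, with adjusted p values of 0.0533 to 0.0748.

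Sdhc (chr1:171127165-171150603, minus strand), a membrane anchor subunit, had 431, 438, 429 and 377 CPM at day 0, 293, 284, 343, 305 and 263 CPM at day 1, and 366, 354, 315, 289 and 172 CPM at day 3. Both injured groups lay below day 0. Sdhc fell by 0.49 ± 0.18 on the log2 scale at day 1 (adjusted p = 0.0418, edgeR), and this call too was lost without the 4 libraries of day 0 or day 1 replicates 1, 2, 4 and 5 left out 1 at a time (adjusted p = 0.0537 to 0.0915). At day 3 its log2 fold change was -0.48 ± 0.18 (adjusted p = 0.0537), which 7 of 25 alternatives called, among them file number format as a term (-0.65, adjusted p = 0.0185, edgeR). Sdhb (chr4:140961203-140979193, plus strand), the iron-sulfur subunit, had 484, 440, 512 and 411 CPM at day 0, 275, 249, 493, 417 and 375 CPM at day 1, and 393, 353, 291, 321 and 229 CPM at day 3. Day 3 lay below day 0 and day 1 overlapped it. Its log2 fold changes were -0.35 (adjusted p = 0.174) and -0.54 ± 0.20 (adjusted p = 0.0536), neither past the edgeR test. The day 3 value was called in 9 of 25 alternatives, among them the fit of only the compared days (-0.56, adjusted p = 0.0253), and the day 1 value in 1, the fit without the 1-digit injured kidneys (-0.81, adjusted p = 0.00301, edgeR). Sdhd (chr9:50596357-50603812, minus strand), the other anchor subunit, had 429, 420, 432 and 392 CPM at day 0, 347, 346, 435, 414 and 357 CPM at day 1, and 491, 418, 385, 440 and 284 CPM at day 3. Its groups overlapped at both times, with log2 fold changes of -0.14 (adjusted p = 0.478) and -0.05 (adjusted p = 0.820, edgeR).

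Promoter sequences are shown for members on which the results turn, to place known elements beside them. RefSeq promoter windows (250 bases before to 50 after the start, GRCm38.p6) matched 50 of the 60 members. Motifs were searched on both strands as exact letters, GCATGCGC for NRF1, CCGGAAGT for ETS factors, CAAGGTCA for estrogen-related receptors and AAGATGGC for YY1. The NRF1 element occurred in 7 of the 50 members (14%), beside 3.05% of 27025 genes, and the YY1 element in 7 (14%), beside 3.19%. The ETS element occurred in 4 members (8%), beside 4.31%, and the estrogen-related receptor element in 1 member (2%), beside 1.76%. Members with the NRF1 letters were Ndufa6, Ndufa8, Ndufa11, Sdhb, Uqcr11, Uqcrc1 and Cox6a1, and their median log2 fold change at day 3 was -0.30, beside -0.27 for the 43 matched members without them. Members with the YY1 letters were Ndufa3, Ndufa9, Ndufb8, Ndufc1, Ndufs4, Ndufs6 and Ndufs7, and their median at day 3 was -0.16, beside -0.29 for the 43 without. A match is a description of the letters and not evidence of binding.

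For complex II, the bases upstream of Sdha, the subunit with the highest CPM before division by length, and the NRF1 letters of Sdhb (in capitals) are shown 5′ to 3′ in the direction of transcription. The stretch of Sdha is chr13:74350281-74350400 on the minus strand, and that of Sdhb is chr4:140961207-140961234 on the plus strand, with the capitals 54 to 47 bases before the RefSeq start. The stretch of Sdhb lies inside the gene span given above, which starts 68 bases before the RefSeq start.
Sdha: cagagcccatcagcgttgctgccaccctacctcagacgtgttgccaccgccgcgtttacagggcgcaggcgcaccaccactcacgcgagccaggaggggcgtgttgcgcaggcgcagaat
Sdhb: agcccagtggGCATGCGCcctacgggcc
The window of Sdha held none of the 4 sets of letters.

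In complex III the core proteins fell at day 3, while the small accessory subunits did not pass the test. Uqcrc2 (chr7:120635176-120659524, plus strand), a core protein and the member of complex III with the highest CPM, had 723, 747, 766 and 644 CPM at day 0. It had 528, 479, 753, 710 and 612 CPM at day 1, and 532, 475, 416, 449 and 404 CPM at day 3. Day 3 lay wholly below day 0 and day 1 overlapped it. Uqcrc2 fell by 0.66 ± 0.15 on the log2 scale at day 3 (adjusted p = 0.00511, edgeR), a call that held in 25 of 25 alternatives, and its value at day 1 was -0.22 (adjusted p = 0.245). Uqcrc1, the other core protein, fell by 0.59 ± 0.14 at day 3 (adjusted p = 0.00672, edgeR), from 565 to 656 CPM at day 0 to 342 to 465 CPM.

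Uqcrfs1 (chr13:30540308-30545362, minus strand), the Rieske iron-sulfur protein, had 434 to 525 CPM at day 0, 302 to 476 CPM at day 1 and 269 to 413 CPM at day 3. Its log2 fold changes were -0.31 (adjusted p = 0.154) and -0.42 ± 0.17 (adjusted p = 0.0727, edgeR). Uqcr10 (chr11:4701973-4704342, minus strand), a small accessory subunit, had 293 to 343 CPM at day 0, 291 to 446 CPM at day 1 and 283 to 409 CPM at day 3, with log2 fold changes of 0.22 (adjusted p = 0.295) and 0.11 (adjusted p = 0.632, edgeR). Both genes overlapped day 0 at day 1. Uqcr11 (chr10:80402997-80406830, minus strand), another small subunit, had 205, 185, 215 and 171 CPM at day 0, 153, 148, 255, 232 and 263 CPM at day 1, and 198, 175, 141, 136 and 137 CPM at day 3. Its day 1 values fell on both sides of day 0, with the 3-digit replicates 1 and 2 below and the 1-digit replicates 3 to 5 above.
The 120 bases upstream of Uqcr11 (chr10:80406831-80406950, minus strand, GRCm38.p6) are shown for the ETS letters in capitals, 66 to 59 bases before the RefSeq start. The NRF1 letters of its window lie outside this stretch.
Uqcr11: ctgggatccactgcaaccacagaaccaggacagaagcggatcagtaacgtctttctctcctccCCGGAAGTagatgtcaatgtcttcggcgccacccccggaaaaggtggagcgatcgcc

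In complex IV most subunits did not pass the test at either day, and at day 3 the largest fitted fold changes were those of the tissue isoforms Cox6b2 and Cox7a1. Cox4i1 (chr8:120668222-120674207, plus strand), the largest nuclear-encoded subunit, had 886, 873, 972 and 796 CPM at day 0, 841, 691, 1153, 1186 and 1111 CPM at day 1, and 814, 707, 567, 720 and 683 CPM at day 3. Day 1 had its 3 highest values in the 1-digit replicates 3 to 5, above all of day 0. The log2 fold change was 0.18 at day 1 (adjusted p = 0.427) and -0.34 at day 3 (adjusted p = 0.144), and Cox4i1 fell by 0.51 ± 0.16 from day 1 to day 3 (adjusted p = 0.0460, edgeR). The count of 3 members that fell from day 1 to day 3 became as low as 1 when single libraries were left out. Cox6a1, the broadly expressed isoform of its pair, had 439 to 519 CPM at day 0 and 317 to 431 CPM at day 3. It fell by 0.46 ± 0.16 at day 3 (adjusted p = 0.0422, edgeR), with all day 3 kidneys below day 0. That call was lost without any 1 of the 4 libraries of day 0 or of day 3 replicates 2 to 5 (adjusted p up to 0.103).

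Cox6b2 (chr7:4751792-4753094, minus strand) is the testis isoform of the Cox6b subunit. It had 2.65, 2.06, 1.39 and 2.66 CPM at day 0, 4.63, 6.13, 2.45, 2.17 and 3.70 CPM at day 1, and 29.1, 13.9, 16.7, 6.52 and 2.64 CPM at day 3. The 3-digit day 3 replicates 1 to 3 were highest, and day 3 replicate 5 lay within the day 0 range. Cox6b2 rose by a log2 fold change of 2.65 ± 0.57 at day 3 (adjusted p = 0.00340, edgeR), a call that held in 25 of 25 alternatives, and its value at day 1 was 0.80 ± 0.54 (adjusted p = 0.243). Its depth was 22 to 571 reads per library. As a share of Cox6b reads, Cox6b2 took 0.288% to 0.682% at day 0, 0.407% to 1.44% at day 1, and 5.07%, 3.15%, 4.35%, 1.54% and 0.863% in day 3 replicates 1 to 5. Cox6b1 (chr7:30616861-30626151, minus strand), the broadly expressed isoform, had 388 to 481 CPM at day 0, 421 to 570 CPM at day 1 and 304 to 544 CPM at day 3, with log2 fold changes of 0.17 (adjusted p = 0.400) and -0.10 (adjusted p = 0.664, edgeR). Testis markers Prm1, Prm2, Tnp1 and Acrv1 were at 0 in all libraries, and the 5-gene testis list summed to at most 0.441 CPM.

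Cox7a1 (chr7:30184144-30186078, plus strand), the heart and skeletal muscle isoform of the Cox7a subunit, had 11.0, 12.2, 12.6 and 11.3 CPM at day 0. It had 4.42, 2.95, 13.4, 11.3 and 12.9 CPM at day 1, and 5.19, 11.2, 5.15, 1.61 and 2.20 CPM at day 3, from 24 to 207 reads per library. The lowest day 1 values were the 3-digit replicates and the lowest day 3 values the 1-digit replicates. Its log2 fold changes of -0.40 ± 0.51 (adjusted p = 0.548) and -1.21 ± 0.51 (adjusted p = 0.0818) did not pass the edgeR test with both formats pooled. Within the 1-digit format Cox7a1 was lower than day 0 at day 3, with a log2 fold change of -2.62 ± 0.35 (adjusted p = 8.11e-05, edgeR). For the 3-digit libraries against day 0, which also differ in format, the value was -0.72 ± 0.26 (adjusted p = 0.0499), and the call was lost when the 1-digit injured kidneys were left out of the edgeR fit. At day 1 it was lower for 3 digits (-1.68 ± 0.32, adjusted p = 0.00129), while the 1-digit value was 0.08 (adjusted p = 0.792, edgeR). Without day 3 replicate 2 the pooled day 3 value was -1.72 (adjusted p = 0.0124). Cox7a2 (chr9:79755361-79759878, minus strand), the broadly expressed isoform, had 289, 324, 349 and 237 CPM at day 0, 343, 289, 471, 462 and 524 CPM at day 1, and 409, 283, 267, 292 and 287 CPM at day 3. Its 1-digit day 1 replicates were above all of day 0. Its log2 fold change was 0.48 ± 0.19 at day 1 (adjusted p = 0.0609, edgeR), which 7 of 25 alternatives called, among them file number format as a term (0.56, adjusted p = 0.0268, edgeR). The 8 striated muscle markers summed to at most 2.06 CPM in any library. The 6 markers of brown fat, which also uses Cox7a1, summed to 57.7 to 150.3 CPM at day 0, 81.8 to 177 CPM at day 1, 43.8 to 105 CPM in the 3-digit and 181 to 222 CPM in the 1-digit libraries of day 3. Of the 3 of them that passed the count filter, 1 was lower in the 3-digit libraries at day 3, and their part in the result was not tested.

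The upstream sequences of 3 complex IV members are shown, Cox6a1 (chr5:115348982-115349130, minus strand) for its overlapping NRF1 letters in capitals on both strands, 162 to 153 bases before the RefSeq start, and Cox6b2 (chr7:4753095-4753214, minus strand) and Cox7a1 (chr7:30184024-30184143, plus strand), which held none of the 4 sets of letters in their windows (GRCm38.p6).
Cox6a1: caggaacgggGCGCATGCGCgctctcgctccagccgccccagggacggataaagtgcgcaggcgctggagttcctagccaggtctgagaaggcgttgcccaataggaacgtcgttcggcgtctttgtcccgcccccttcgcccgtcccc
Cox6b2: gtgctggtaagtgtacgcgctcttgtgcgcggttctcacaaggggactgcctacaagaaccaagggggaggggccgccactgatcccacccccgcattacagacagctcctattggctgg
Cox7a1: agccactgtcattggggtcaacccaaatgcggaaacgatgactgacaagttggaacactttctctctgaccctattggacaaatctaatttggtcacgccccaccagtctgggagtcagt

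**Figure D3:**
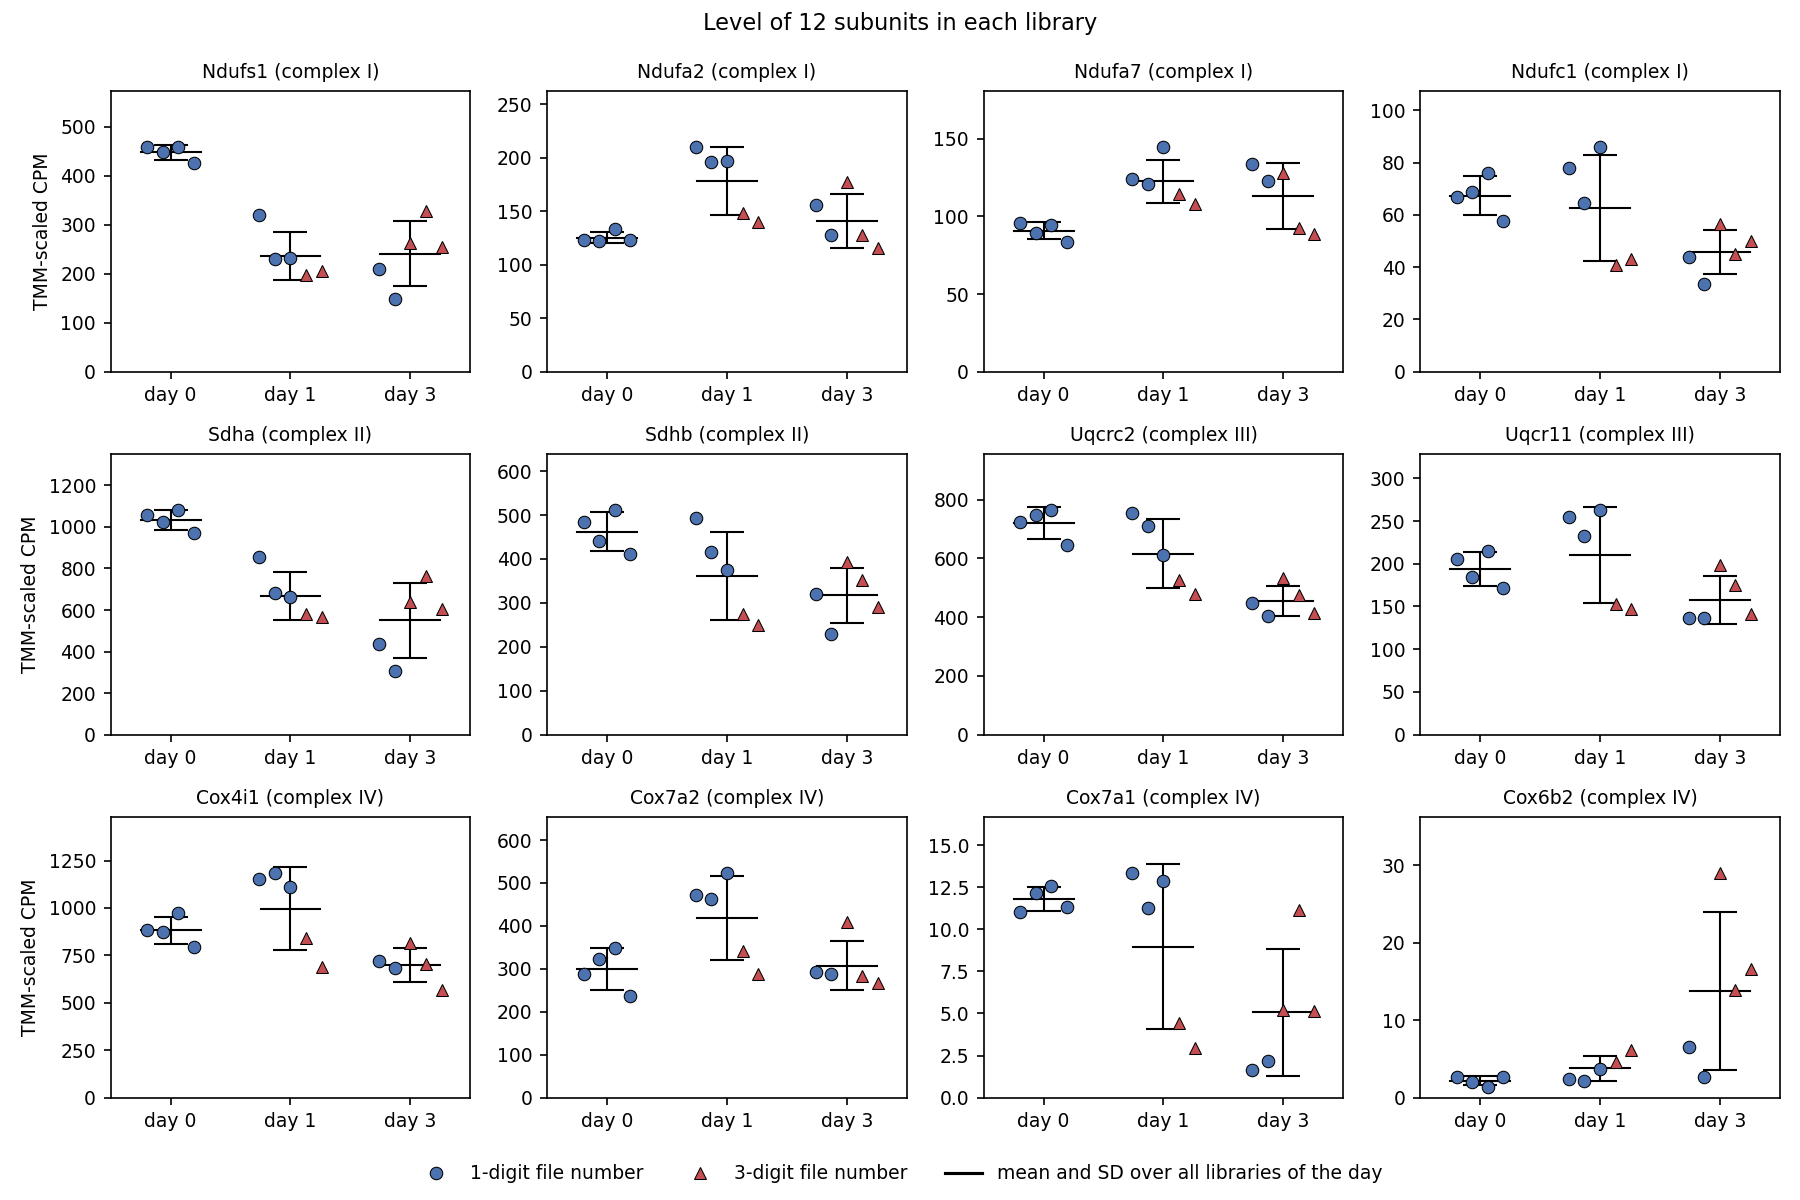
CPM (vertical axis) of 12 subunits in each library by day (horizontal axis), with circles for 1-digit and triangles for 3-digit file numbers and mean and SD as bars. Ndufs1 and Sdha lie below day 0 in all 10 injured kidneys, and Cox6b2 reaches 29.1 CPM in day 3 replicate 1.

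Shorter transcripts lay higher than longer ones at day 1. Over the 60 members the log2 fold change at day 1 had a Spearman rho of -0.45 with exon length, beside -0.17 over 13667 genes with a length, and this is across genes of the same libraries, which are not independent replicates. The 30 shorter members had a median log2 fold change of 0.09 and the 30 longer members one of -0.20, split at 813 bases. At day 3 rho was -0.27 over the members and -0.02 over all genes.

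Libraries of the same day differed by file number format, with 26 members called at day 1 (35.0% of all genes were called) and 6 at day 3 (18.5% of all genes). At day 1 the summed level of all members was 13975 and 13075 CPM in the 3-digit replicates 1 and 2, and 19339, 18062 and 17408 CPM in the 1-digit replicates 3 to 5. At day 3 it was 16460, 14664 and 12528 CPM in the 3-digit replicates 1 to 3, and 14627 and 11284 CPM in the 1-digit replicates 4 and 5. The formats thus did not overlap at day 1 and overlapped at day 3. Below the day 0 range lay 43 and 48 of the 60 members in day 1 replicates 1 and 2, and 10, 15 and 22 in replicates 3 to 5. At day 3 these counts did not separate by format, with 24, 39 and 53 in the 3-digit and 31 and 52 in the 1-digit libraries. In day 1 replicate 3, 38 members lay above the day 0 range. Of all genes, 35.2% to 44.8% lay below and 36.5% to 44.4% above the day 0 range in each of these 10 libraries.

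**Figure D4:**
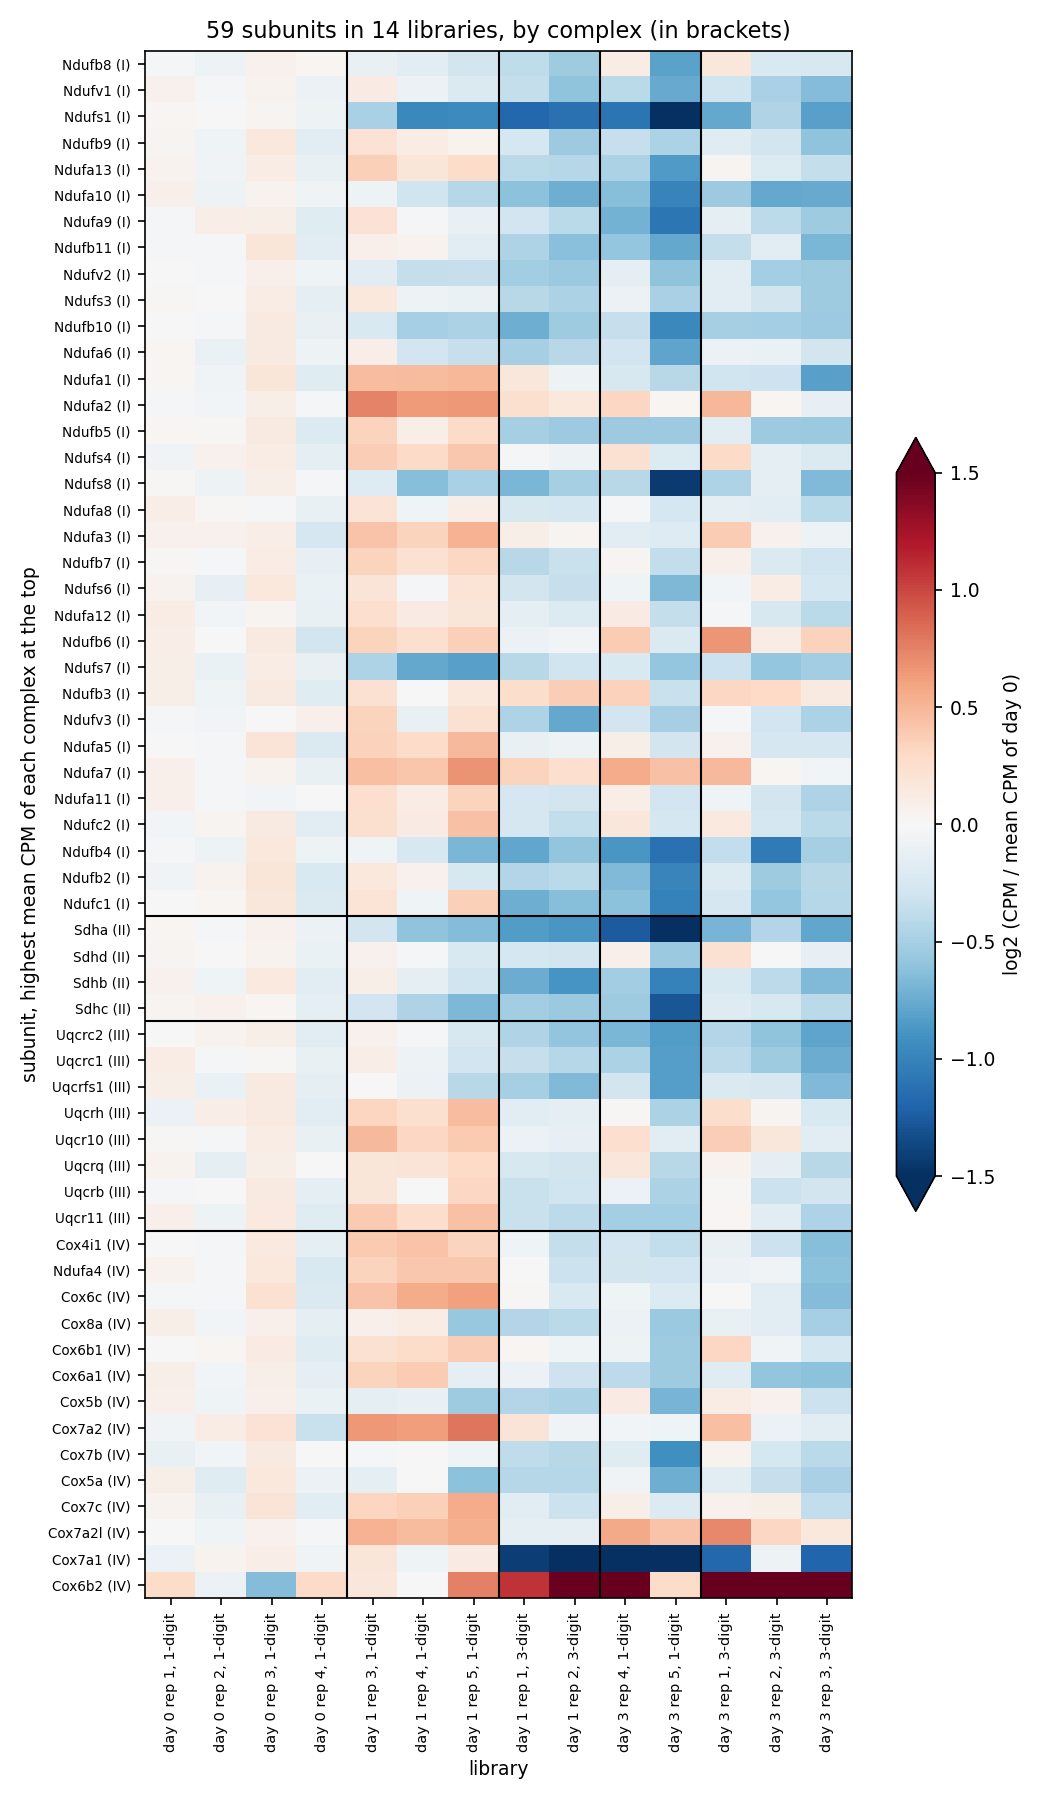
Members (59 rows, grouped by complex) in each of the 14 libraries (columns), colored by log2 of CPM over its day 0 mean and limited to 1.5 in either direction. Day 1 replicates 1 and 2 are low in most members, with 43 and 48 of 60 below the day 0 range, and day 1 replicate 3 is high in many, with 38 above it.

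At day 1, 26 of the 60 members had lower levels in 3-digit than in 1-digit libraries and 0 were higher by the edgeR test of the format within a day, 43.3% of the members beside 35.0% of all genes. The median difference was -0.42 on the log2 scale, with -0.42 in complex I, -0.28 in complex II, -0.49 in complex III and -0.47 in complex IV. Those lower were 14 subunits of complex I, Sdhb, 4 of complex III (Uqcr10, Uqcr11, Uqcrb and Uqcrc2) and 7 of complex IV. Scaled by library totals without TMM, 2 were higher and 10 lower, with a member median of -0.21 beside 0.24 over all genes. The count of 26 became 14 without day 1 replicate 1, 5 without replicate 2, 15 without replicate 3 and 17 without replicate 4. At day 3, 6 members were higher in the 3-digit libraries and 0 lower, 10% of the members beside 18.5% of all genes, with a median of 0.14. These were Ndufa9, Ndufa13, Ndufs1, Sdha, Cox6b2 and Cox7a1. Without day 3 replicate 5 the count became 0 and the median turned to -0.07. The count became 3 without replicate 2 or 3, and 14 without replicate 4.

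The test of the difference between these differences (day 3 minus day 1) called 15 members, 25% of them beside 17.6% of all genes, all 15 with a higher ratio of 3-digit to 1-digit libraries at day 3 than at day 1. They were 11 subunits of complex I (among them Ndufa3, Ndufa9, Ndufa13, Ndufb2, Ndufb5, Ndufb7, Ndufb11, Ndufc1, Ndufs1 and Ndufv3), with Sdha, Sdhb, Uqcr11 and Cox7a1. The median over the 60 members was 0.59 on the log2 scale. The count became 7 without day 1 replicate 1, 6 without day 1 replicate 2 or day 3 replicate 5, 24 without day 3 replicate 3 and 27 without day 3 replicate 4. Cox7a1 had the largest value of the named members, a difference of -1.76 ± 0.33 at day 1 (adjusted p = 0.00189) and of 1.90 ± 0.36 at day 3 (adjusted p = 0.00676), which differed by 3.67 ± 0.49 (adjusted p = 0.000753, edgeR). Without day 3 replicate 5 the day 3 difference had an adjusted p of 0.0630.

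Ndufc1 (chr3:51404677-51408988, minus strand), an accessory subunit of the membrane arm of complex I, had 66.9, 68.7, 75.9 and 57.8 CPM at day 0, 40.6, 43.3, 77.8, 64.5 and 86.1 CPM at day 1, and 33.4 to 56.4 CPM at day 3. The 3-digit day 1 replicates lay below day 0 and the 1-digit replicates did not. The format difference of Ndufc1 was -0.86 ± 0.17 at day 1 (adjusted p = 0.00266), and the change of that difference by day 3 was 1.24 ± 0.24 (adjusted p = 0.00473, edgeR). For Sdha the format difference was -0.36 at day 1 (adjusted p = 0.144) and 0.85 ± 0.18 at day 3 (adjusted p = 0.0116, and 0.134 without day 3 replicate 5), with a change of 1.20 ± 0.26 (adjusted p = 0.00760, edgeR). For Uqcr11 it was -0.73 ± 0.16 at day 1 (adjusted p = 0.00369) and 0.33 at day 3 (adjusted p = 0.144), with a change of 1.06 ± 0.22 (adjusted p = 0.00627, edgeR). The changes of Ndufc1, Sdha, Uqcr11 and Cox7a1 kept their call without any 1 of the 14 libraries.

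**Figure D5:**
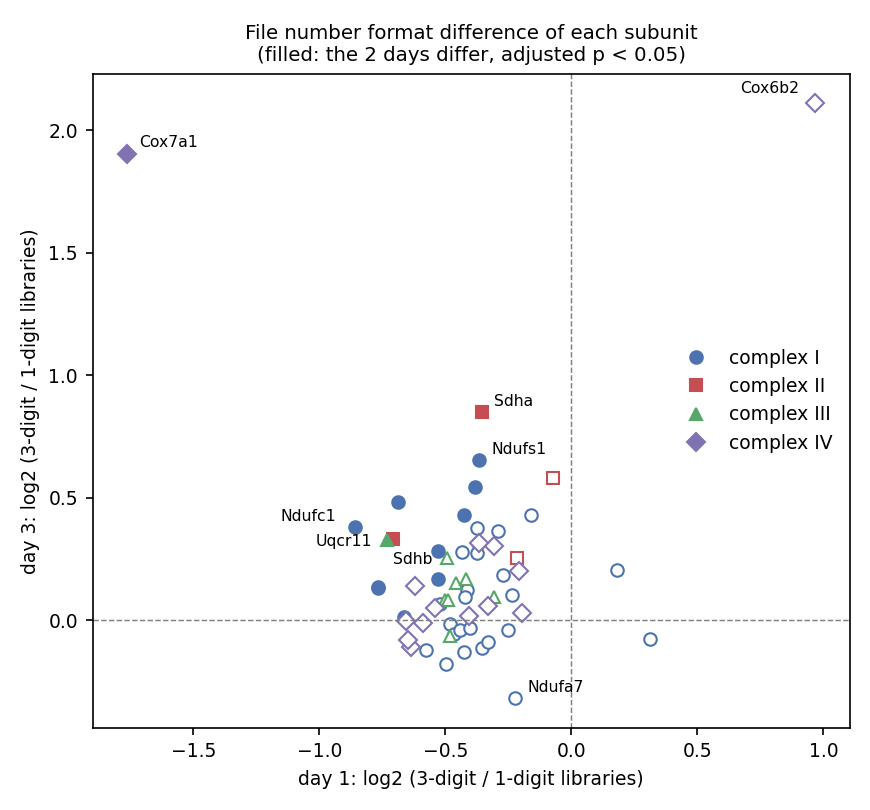
Log2 difference of 3-digit against 1-digit libraries at day 1 (horizontal axis) and at day 3 (vertical axis) for each member, with colors and shapes for the complex and filled points where the 2 differences differ by the edgeR test. Of the 60 members, 57 lie left of 0 at day 1, with a median of -0.42, and Cox7a1 stands at -1.76 and 1.90.

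At day 1 the proximal tubule markers, like the members, summed lower in the 3-digit libraries. At day 3 the sums of both overlapped between the formats. The sum over 15 marker genes was 36132 and 23763 CPM at day 1 with 3 digits and 47103 to 60775 CPM with 1 digit. At day 3 it was 15612 to 30160 CPM with 3 digits, highest in replicate 2, and 12460 to 15832 CPM with 1 digit. By format, 35.0% of all genes were called at day 1 and 18.5% at day 3, in either direction. Of these 15 genes, 8 were lower in the 3-digit libraries at day 1 (median difference -1.21) and 7 higher at day 3 (median 1.14). The summed level of the 10 tubular injury markers lay the other way, with 32775 to 38346 CPM against 9508 to 17663 CPM at day 1, and 7156 to 34113 CPM against 37517 to 44995 CPM at day 3. Most of these 10 genes did not share that direction by the test, with 2 higher at day 1 (median 0.04) and 1 lower at day 3 (median -0.22). None of the defining markers of either list was at 0. Of 10 markers of fibroblasts, pericytes and smooth muscle, 7 were higher in the 3-digit libraries at day 1 (median 1.68) and 5 lower at day 3 (median -0.63). Of 8 endothelial markers, 3 were higher and 1 lower at day 1 (median 0.04), and 6 were lower at day 3 (median -1.23). Of 10 markers of the thick ascending limb and distal convoluted tubule, 1 was higher and 4 lower at day 1, and 4 were higher and 1 lower at day 3. Their part in the differences of the members was not tested.

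Between 1-digit libraries, which hold all of day 0, 14 members rose and 5 fell at day 1 in the edgeR fit of all 14 libraries. That was 31.7% of the members beside 58.5% of all genes, with a member median of 0.13. The fit of only the 1-digit libraries had a different balance and is given among the alternatives at the end. Those that rose were 6 subunits of complex I (Ndufa1, Ndufa2, Ndufa3, Ndufa5, Ndufa7 and Ndufs4), Uqcr10 and Uqcr11 in complex III, and Cox4i1, Cox6c, Cox7a2, Cox7a2l, Cox7c and Ndufa4 in complex IV. Those that fell were Ndufb10, Ndufs1, Ndufs7, Sdha and Sdhc. In the fit of only the 1-digit libraries the day 1 call of Sdhc was lost (-0.43, adjusted p = 0.0537, edgeR). Scaled by library totals, 9 rose and 9 fell. The count of 19 became 12 without day 0 replicate 1 or 4, 10 without day 0 replicate 2 and 9 without day 1 replicate 5. At day 3 the 1-digit libraries had 3 members higher and 26 lower than day 0, 48.3% beside 53.7% of all genes, with a median of -0.33 and with 13 calls without day 3 replicate 5. From day 1 to day 3 in the 1-digit libraries, 32 members fell and 0 rose, 53.3% beside 32.0% of all genes, with a median of -0.47. That count became 19 without day 1 replicate 3 and 12 without day 3 replicate 5.

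In the 3-digit libraries against day 0, 1 member was higher and 21 were lower at day 1, 36.7% beside 41.6% of all genes, with a median of -0.37 and with 13 and 7 calls without day 1 replicates 1 and 2. At day 3, 2 were higher and 18 lower, 33.3% beside 32.4% of all genes, with a median of -0.25, or 5 higher and 9 lower by library totals. That count of 20 became 11 without day 0 replicate 1, 2 or 3 and 10 without day 3 replicate 3. From day 1 to day 3 in the 3-digit libraries, Cox6b2 and Cox7a2l rose and 0 members fell, 3.33% beside 13.9% of all genes, or 2 higher and 1 lower by library totals, with 0 calls without day 1 replicate 1 or 2 and 4 without day 3 replicate 1. Ndufs1 fell at day 1 in both sets, by 0.78 in the 1-digit and by 1.15 in the 3-digit libraries on the log2 scale. Sdha fell at day 3 in both sets, by 1.48 in the 1-digit (adjusted p = 5.04e-05) and by 0.63 in the 3-digit libraries (adjusted p = 0.00719, edgeR). Cox6b2 rose at day 3 in both sets, by 1.07 in the 1-digit (adjusted p = 0.0388) and by 3.18 in the 3-digit libraries (adjusted p = 3.72e-05, edgeR). Of the 1-digit day 3 libraries, replicate 4 had 6.52 CPM of Cox6b2, and replicate 5, at 2.64 CPM, lay within the day 0 range.

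Lists of genes around the respiratory chain were counted in the same edgeR fits, in which 42.1% of all genes were called at day 1 and 33.3% at day 3. By direction, 3339 of the 14300 genes rose and 2681 fell at day 1, and 2783 rose and 1974 fell at day 3. Of 19 ATP synthase genes, 4 fell at day 3, and the median log2 fold changes were -0.07 at day 1 and -0.24 at day 3. Of 17 tricarboxylic acid cycle genes, 7 fell at day 1 and 10 at day 3, with medians of -0.40 and -0.50. Of 43 assembly factors of the complexes, 1 rose and 12 fell at day 1 and 13 fell at day 3, with medians of -0.28 and -0.35. Of 21 genes of electron carriers and the quinone route, 2 rose and 7 fell at day 1 and 10 fell at day 3, with medians of -0.38 and -0.49. By format at day 1, where 35.0% of all genes were called, 9 ATP synthase genes were lower and 1 higher, and 11 of the 43 assembly factors had higher and 1 had lower levels in libraries of the 3-digit format.

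Among the regulators, Ppargc1a, which encodes PGC-1α, had 94.9, 97.2, 96.8 and 87.9 CPM at day 0, 33.2, 28.9, 30.9, 19.3 and 28.5 CPM at day 1, and 50.2, 57.1, 52.9, 42.8 and 24.6 CPM at day 3. All injured kidneys of both formats lay below day 0. Ppargc1a fell by 1.74 ± 0.21 on the log2 scale at day 1 (adjusted p = 5.17e-05) and by 1.05 at day 3 (adjusted p = 0.00206, edgeR). Nrf1 rose at day 1 by a log2 fold change of 0.76 ± 0.27 (adjusted p = 0.0368, edgeR), with 18.2 and 19.6 CPM in the 3-digit and 34.3, 53.0 and 38.2 CPM in the 1-digit libraries beside 17.4 to 20.9 CPM at day 0. Its format difference at day 1 was -1.15 (adjusted p = 0.00221, edgeR), of the same sign as that of 57 members. Esrrg, an estrogen-related receptor, fell by 1.56 ± 0.30 at day 1 (adjusted p = 0.00124, edgeR), and its value at day 3 was -0.67 (adjusted p = 0.0915). Esrra had log2 fold changes of -0.77 (adjusted p = 0.0627) and -0.74 (adjusted p = 0.0841), which did not pass. Gabpa and Tfam, the latter a factor of mitochondrial DNA transcription, did not pass at day 1 (adjusted p = 0.983 and 0.813), and both were lower in the 3-digit libraries at day 1, by log2 differences of -0.74 (adjusted p = 0.000853) and -0.44 (adjusted p = 0.0283, edgeR). Esrrg differed by format the other way, higher in the 3-digit libraries at day 1 by 1.15 ± 0.23 (adjusted p = 0.00269, edgeR). Of all 17 regulators tested, 3 rose and 6 fell at day 1, and 2 rose and 4 fell at day 3, beside 42.1% and 33.3% of all genes called.

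Markers of nephron segments, injury, leukocytes and interstitial cells were counted in the same edgeR fits, in which 42.1% of all genes were called at day 1 and 33.3% at day 3. Of the 14300 genes, 3339 rose and 2681 fell at day 1, and 2783 rose and 1974 fell at day 3. Of the 15 proximal tubule markers, 6 fell at day 1 and 8 at day 3, with median log2 fold changes of -0.87 and -1.30, and of 10 markers of the thick ascending limb and distal convoluted tubule, 6 and 8 fell, with medians of -1.07 and -1.80. Of 10 collecting duct markers, 3 and 6 fell. The called markers of injury and of interstitial cells were mostly higher. Of 10 tubular injury markers, 9 rose at either day, with medians of 3.44 and 3.54. Of 9 leukocyte markers tested, 5 rose and 1 fell at day 1 and 6 rose and 1 fell at day 3, with summed levels of 121 to 191 CPM at day 0, 155 to 387 CPM at day 1 and 221 to 560 CPM at day 3. Of 10 markers of fibroblasts, pericytes and smooth muscle, 4 and 7 rose, with summed levels of 151 to 184 CPM at day 0, 228 to 695 CPM at day 1 and 546 to 1689 CPM at day 3. Of 8 endothelial markers, 1 rose and 2 fell at day 1, and the medians were 0.05 at day 1 and 0.30 at day 3. Their part in the changes of the subunits was not tested.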

How the data were processed

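The authors trimmed reads with Trimmomatic and aligned them with STAR to mm10, per the submitters' processing notes, with versions not given in the sources used here. RNA was TRIzol-extracted total RNA prepared with an Illumina TruSeq kit. The deposited files give, for each gene, unnormalized counts of reads that mapped to 1 place, in total and by strand. The reverse-strand counts were used (98.5% to 98.7% of strand-assigned reads). Entries naming no gene held 29.0% to 38.3% of reads and were left out.

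Members were chosen at a mean of 1 CPM by library totals. Counts were filtered by day, TMM-scaled and fitted by edgeR 4.0.16 (R 4.3.3) quasi-likelihood models over all 14300 genes, by day and by day with file number format, with Benjamini-Hochberg adjustment at 0.05. Printed CPM are TMM-scaled. DESeq2 1.42.0, other scalings, filters, count columns, blocks and left-out libraries were alternatives. The tests were tried on simulated data.

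The 60 members and all gene lists were chosen with earlier results of these data known. Genes given full values were, in each complex, those with the highest CPM and the extreme fold changes and format differences, the complex II subunits, isoform pairs, and members called against most of their complex. Ndufs7, Ndufa10, Uqcrc1 and Cox6a1, outside that rule, were added after their values were seen. The values of 1 member that the rule picks are not reported here.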

Additional observations from a re-analysis of the deposited data

Results flagged for a closer look

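In 4 of 66 groups of libraries checked (22 measures in 3 days), 1 library stood apart from the rest of its day, and chance gives about 1 in 20. Ndufa2 in day 0 replicate 3 was at 134 CPM with the nearest library at 124 CPM. Ndufs1 in day 1 replicate 3 was at 320 CPM with the nearest at 231 CPM. Sdhc in day 0 replicate 4 was at 377 CPM with the nearest at 429 CPM, and Cox7a2 in day 3 replicate 1 was at 409 CPM with the nearest at 292 CPM.

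The difference between file number formats changed from day 1 to day 3 for 15 of the 60 members by edgeR. Among the named members this change was 1.24 for Ndufc1, 1.02 for Ndufs1, 1.20 for Sdha, 1.04 for Sdhb, 1.06 for Uqcr11 and 3.67 for Cox7a1 on the log2 scale. The calls of Ndufs1 and Sdhb were lost without day 1 replicate 1, day 1 replicate 2 or day 3 replicate 5, with adjusted p values of 0.0518 to 0.0752.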

How the results depend on the processing

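None of the named genes' values turned to a called change of opposite sign under the alternatives run. At day 1 the balance of called members did turn, from 2 higher and 7 lower to 18 higher and 3 lower with only the 1-digit libraries. With library totals in place of TMM, 2 members passed from day 1 to day 3, 12 by format at day 1 and 18 from day 1 to day 3 in the 1-digit libraries, and the summed 3-digit over 1-digit ratios at day 1 became 0.857 for all members, 0.871 for complex I, 0.914 for complex II, 0.843 for complex III and 0.834 for complex IV, beside main ratios of 0.740, 0.752, 0.788, 0.728 and 0.721. Relative log expression scaling in edgeR gave 0.767 for complex II. With a log2 fold change of at least 1 also required, 0 members passed at day 1, 1 at day 3, 1 from day 1 to day 3, 1 by format at day 1, 2 by format at day 3 and 7 for the change of the format difference. DESeq2 called 9 from day 1 to day 3, 27 for the change of the format difference and 4 from day 1 to day 3 in the 3-digit libraries. Fitting only the compared days gave 1 from day 1 to day 3, and fitting only day 3 gave 0 by format. With format as a term, 14 members passed at day 1 (6 higher, 8 lower). Only the 1-digit libraries gave 21 at day 1, 29 at day 3 and 33 from day 1 to day 3, and only the 3-digit libraries of days 1 and 3 gave 30 at day 1 (1 higher, 29 lower). Causes were not tested.

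Same-numbered libraries did not deviate together (13 pairs, r from -0.17 to 0.26, 4 over 0.1), and 4 of 14 correlated best with their own number. With the replicate block, 4 members passed at day 1 (1 higher, 3 lower), 8 at day 3 (1 higher, 7 lower) and 2 from day 1 to day 3, and the day 1 adjusted p was 0.0928 for Sdha, 0.0973 for Sdhc and 0.0646 for Ndufa7 (edgeR).

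Leaving out single libraries gave 4 to 11 members at day 1, 8 to 23 at day 3, 1 to 13 from day 1 to day 3, 5 to 32 by format at day 1, 0 to 14 by format at day 3 and 6 to 27 for the change of that difference. In the 1-digit libraries it gave 9 to 25, 13 to 32 and 12 to 34 for day 1, day 3 and day 1 to day 3, and in the 3-digit libraries 7 to 29, 10 to 22 and 0 to 4. Where this left 1 library in a group, its spread was taken from the others. Of the values of named genes under all alternatives, 1841 kept their side of the threshold, 98 lost their call and 77 gained one. Cox6b2 and Cox7a1 rest on as few as 22 and 24 reads in a library, which limits their precision.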
